A study of Mus musculus with 6 samples.

Results

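The genes described here are 10 transcriptional and signaling genes that mark the deep layers of the cerebral cortex, namely Bcl11b, Fezf2, Ldb2, Crym, Tbr1, Tle4, Foxp2, Zfpm2, Sox5 and Nfib. They were taken by gene symbol from a deposited table of 17348 genes, and all 10 were found there and passed the filter on low counts. Bcl11b, Fezf2, Ldb2 and Crym were treated as layer 5 genes, Tbr1, Tle4, Foxp2 and Zfpm2 as layer 6 genes, and Sox5 and Nfib as genes of both deep layers. The table holds RNA-seq of dissected mouse cortex at E18.5, shortly before birth, with 3 control (Ctrl) libraries and 3 libraries of a conditional knockout (cKO) of Ybx1, an RNA-binding protein that recognises 5-methylcytosine in mRNA. The cKO embryos carried Nestin-Cre and 2 floxed Ybx1 alleles, made in C57BL/6J mice, from which exons 3 to 8 are deleted after recombination. Nestin-Cre acts in neural progenitors of the whole nervous system, so neurons of other regions that send axons to the cortex, or receive them from it, lacked Ybx1 too. The controls are labelled WT, and the methods of the study call them wild type littermates while its results use Ybx1 fl/fl animals without Cre as Ctrl. The comparison asks whether the genes that specify deep-layer neurons differ in level in a cortex without Ybx1.

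Projection neurons of the cortex are born in an order from deep to superficial. Neurons of layer 6 mostly project to the thalamus, and many neurons of layer 5 project to the brainstem and spinal cord. The choice between these fates is made by a small set of transcription factors that act on each other. Fezf2 promotes the subcerebral fate of layer 5 and acts in part through Bcl11b, also known as Ctip2, while Tbr1 and Sox5 hold Fezf2 and Bcl11b down in corticothalamic neurons of layer 6. At E18.5 the deep layers have been formed and these factors are still made.

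Relative to all RNA of a library, none of the 10 deep-layer genes differed between Ctrl and cKO cortex beyond the spread of the replicates. The fitted log2 fold changes, cKO over Ctrl, lay between -0.29 for Crym and 0.18 for Foxp2, and 5 were above and 5 below 0. With edgeR's quasi-likelihood test and Benjamini-Hochberg adjustment over all genes, 0 of 10 had an adjusted p under 0.05, where 0.0737% of the 13570 genes tested did. At an unadjusted p under 0.05 it was also 0 of 10, beside 6.62% of all genes tested. The Ctrl and cKO libraries overlapped for each of the 10, and they did not overlap for 14.3% of all genes tested. DESeq2 and limma on log2(TPM + 1) called 0 of 10 as well, beside 0.718% and 0.0811% of the genes those tests adjusted. At shares this low, a count of 0 among 10 genes does not set them apart from all genes. The study's own comparison at E18.5 listed many more genes as changed, by a test and threshold that its text does not name.

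The targeted gene was read first. Ybx1 was at 1015, 1297 and 956 CPM in the Ctrl libraries and at 24.0, 24.8 and 24.9 CPM in the cKO libraries, where CPM is the estimated count divided by the library total in units of 1e6, scaled between libraries by the TMM method. Its log2 fold change of -5.47 had a standard error of 0.164 (adjusted p = 6.95e-07 in edgeR), which is the direction the labels give. Library totals ranged from 15091951 to 16885451 estimated counts, and the common biological coefficient of variation was 0.147. Emx1 and Neurod6, which mark cortical excitatory neurons, were present in every library, at 50.6 to 86.2 TPM and 849 to 1245 TPM. Of 3 Y-linked genes, counts were 714 to 1756 in the Ctrl libraries and 0 to 1 in the cKO libraries, so genotype and sex of the embryos cannot be told apart for any gene below. Ctrl replicate 2 stood apart from the other libraries by a trend on transcript length and GC content, and log2 fold changes of the 10 genes without it are given below. In bulk tissue, fewer cells of a type and less RNA per cell cannot be told apart. CPM and TPM are relative to the library total, so a loss shared by all cells of the cortex would not appear in them. By immunostaining, the study counted fewer Ctip2 (Bcl11b) and Tbr1 neurons in cKO cortex at birth, and each layer was thinner. Those are counts of cells by protein at a later time, on which relative RNA levels cannot decide.

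**Figure D1:**
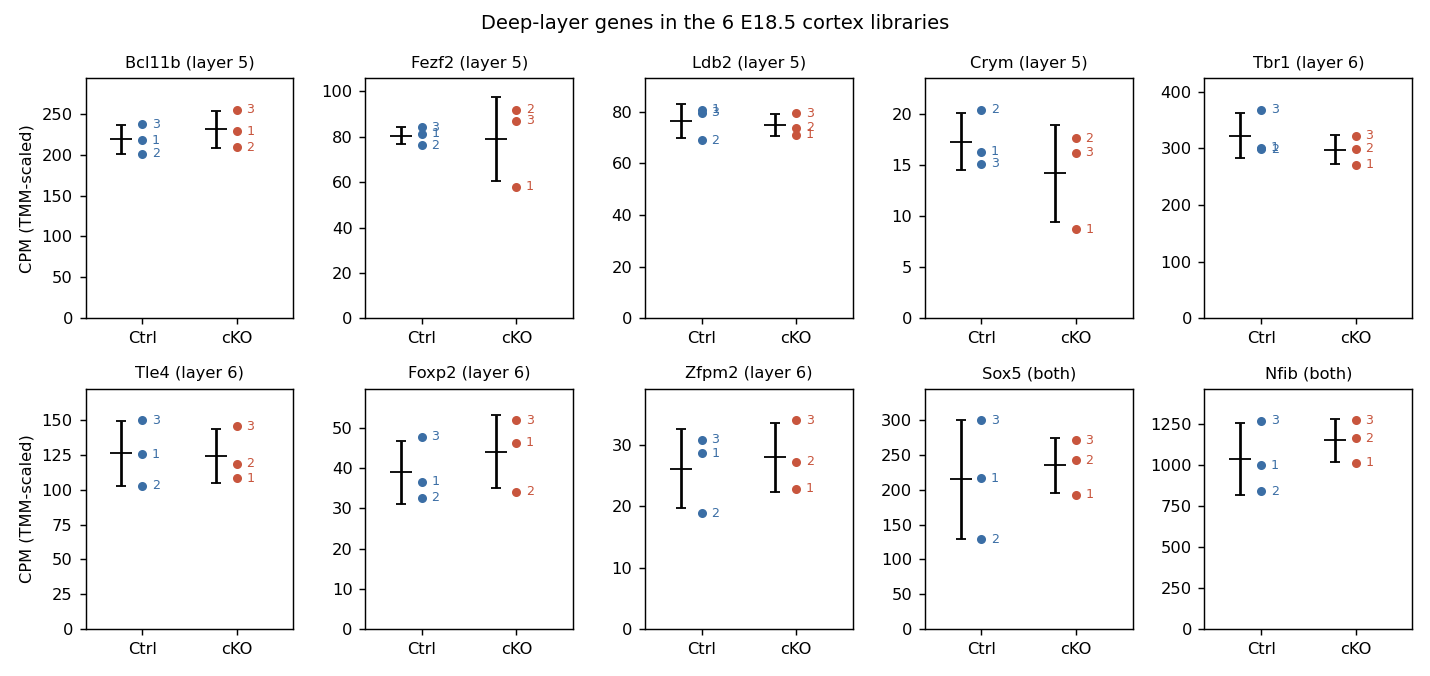
Level of each deep-layer gene in the 6 libraries. The vertical axis is TMM-scaled CPM from 0, blue points are Ctrl and red points cKO libraries with their replicate numbers, and black bars are the mean ± SD of 3 libraries. In each of the 10 panels the groups overlap, and Fezf2 and Crym have a low point in cKO replicate 1.

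Bcl11b encodes a zinc finger protein that layer 5 subcerebral neurons need for axon outgrowth to the spinal cord. On GRCm38 it occupies chromosome 12 from 107910403 to 108003602 (minus strand, Entrez 58208). Bcl11b was at 218, 201 and 237 CPM in Ctrl and at 229, 209 and 255 CPM in cKO. The highest cKO library exceeded the highest Ctrl library, and the remaining cKO libraries fell inside the range of Ctrl. Within same-numbered pairs, the cKO library was the higher one in 3 of 3. In the fit its log2 fold change was 0.08 (standard error 0.119, adjusted p = 0.918), and the 95% interval of the fold was 0.876 to 1.27.

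Fezf2, the zinc finger factor at the head of the layer 5 program, occupies chromosome 14 from 12342094 to 12348189 (minus strand, Entrez 54713). It was at 81.3, 76.4 and 84.1 CPM in Ctrl and at 58.1, 92.0 and 87.2 CPM in cKO. The coefficient of variation was 4.88% in Ctrl and 23.2% in cKO, but on the log2 scale the distance from lowest to highest library went from 0.14 to 0.54 in Ctrl and from 0.66 to 0.64 in cKO after the length and GC correction described below, so that the difference in spread rests on the uncorrected values. The cKO libraries lay on both sides of Ctrl, with replicate 1 below and the other two above every Ctrl library. The log2 fold change was -0.03 (standard error 0.167, adjusted p = 0.983, 95% interval of the fold 0.755 to 1.28). Its sign rested on single libraries: without cKO replicate 1 it was 0.15 and without Ctrl replicate 3 it was 0.0047.

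Ldb2 encodes a LIM domain-binding cofactor that links LIM-homeodomain factors to other proteins on DNA, and occupies chromosome 5 from 44472132 to 44799680 (minus strand, Entrez 16826). Ldb2 was at 80.8, 68.9 and 79.6 CPM in Ctrl and at 71.1, 73.8 and 79.5 CPM in cKO. All cKO libraries lay inside the Ctrl range. Its log2 fold change of -0.03 had the smallest standard error of the 10 genes, 0.110 (adjusted p = 0.966), and the 95% interval of the fold was 0.824 to 1.16.

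Crym encodes a thyroid hormone-binding protein of the cytosol and, unlike most of the others, is not a transcription factor. It occupies chromosome 7 from 120186380 to 120202111 (minus strand, Entrez 12971). Crym was at 16.3, 20.4 and 15.1 CPM in Ctrl and at 8.73, 17.6 and 16.2 CPM in cKO, from 141 to 349 estimated counts. Replicate 1 of cKO was below every other library, and the other cKO libraries lay inside the Ctrl range. Its estimate was -0.29 on the log2 scale (standard error 0.250, adjusted p = 0.862), and the 95% interval of the fold was 0.554 to 1.21. Without cKO replicate 1 the log2 fold change was -0.03. Crym had the lowest estimate of the 10 genes, and it rests on that library.

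Among the layer 6 genes, Tbr1 encodes the T-box factor that specifies corticothalamic neurons and occupies chromosome 2 from 61802930 to 61814114 (plus strand, Entrez 21375). Tbr1 was at 301, 298 and 368 CPM in Ctrl and at 271, 299 and 322 CPM in cKO. One cKO library was below the Ctrl range and the remaining libraries were within it. The log2 fold change was -0.12 (standard error 0.127, adjusted p = 0.8996), and the 95% interval of the fold was 0.756 to 1.13.

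Tle4 encodes a Groucho-family corepressor found in corticothalamic neurons. It occupies chromosome 19 from 14448150 to 14598051 (minus strand, Entrez 21888). Tle4 was at 126, 103 and 150 CPM in Ctrl and at 108, 119 and 146 CPM in cKO, so that every cKO library lay inside the Ctrl range. Its log2 fold change was -0.02 (standard error 0.163, adjusted p = 0.986, 95% interval of the fold 0.762 to 1.27).

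Foxp2, a forkhead factor of layer 6 that medium spiny neurons of the striatum also make, occupies chromosome 6 from 14901349 to 15441977 (plus strand, Entrez 114142). It was at 36.7, 32.6 and 47.8 CPM in Ctrl and at 46.3, 34.1 and 51.9 CPM in cKO. The highest library was cKO replicate 3 and the lowest Ctrl replicate 2, with the others interleaved. The estimate for Foxp2, a log2 fold change of 0.18, was the highest of the 10 genes (standard error 0.188, adjusted p = 0.896, 95% interval of the fold 0.842 to 1.52), and it ranged from 0.04 to 0.35 with 1 library left out.

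Zfpm2, also called Fog2, encodes a cofactor of GATA factors that corticothalamic neurons express. It occupies chromosome 15 from 40655035 to 41104592 (plus strand, Entrez 22762). Zfpm2 was at 28.7, 18.9 and 30.9 CPM in Ctrl and at 22.8, 27.3 and 34.0 CPM in cKO. The lowest library was again Ctrl replicate 2 and the highest cKO replicate 3. Its estimate was 0.10 on the log2 scale (standard error 0.210, adjusted p = 0.937, 95% interval of the fold 0.772 to 1.49), and it was -0.09 without Ctrl replicate 2.

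Sox5 and Nfib are not confined to 1 deep layer. Sox5 encodes a SoxD factor that times the production of subplate, layer 6 and layer 5 neurons, and occupies chromosome 6 from 143828425 to 144781977 (minus strand, Entrez 20678). Sox5 was at 217, 129 and 300 CPM in Ctrl and at 193, 242 and 271 CPM in cKO. Its Ctrl libraries differed by 2.33-fold from lowest to highest, more than for any other of the 10 genes, and enclosed all cKO libraries. The estimate of 0.13 on the log2 scale (standard error 0.268, adjusted p = 0.937) had the wide 95% interval of 0.719 to 1.67 for the fold, and without Ctrl replicate 2 the log2 fold change was -0.13.

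Nfib encodes a nuclear factor I protein that deep-layer neurons and glia use and that is needed for the corpus callosum and corticofugal tracts. It occupies chromosome 4 from 82290173 to 82705750 (minus strand, Entrez 18028). Nfib was at 999, 840 and 1269 CPM in Ctrl and at 1013, 1162 and 1271 CPM in cKO. The highest library of each group differed by little, and the lowest was Ctrl replicate 2. For Nfib the estimate was 0.15 on the log2 scale (standard error 0.165, adjusted p = 0.8996, 95% interval of the fold 0.856 to 1.44). It was 0.0190 without Ctrl replicate 2, 0.32 without Ctrl replicate 3 and 0.0024 after the length and GC correction.

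**Figure D2:**
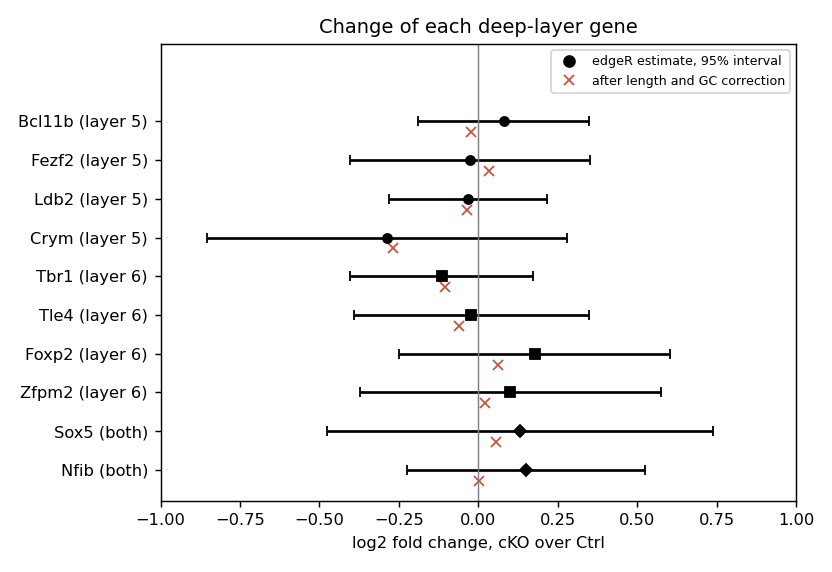
Log2 fold change of each deep-layer gene, cKO over Ctrl. Black symbols are the edgeR estimates with 95% intervals (circles for layer 5, squares for layer 6, diamonds for both layers), and crosses are estimates after correction for transcript length and GC content; all 10 intervals include 0, and the crosses lie between -0.27 for Crym and 0.06 for Foxp2.

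The intervals give the range of change left for each gene. Apart from Crym, whose interval reached down to 0.554 of the Ctrl level, no interval reached below 0.719, the bound for Sox5. The highest upper bound was 1.67, also for Sox5, and Ldb2, Tbr1 and Bcl11b were bounded most tightly. The bounds are those of each gene's estimate and not limits of detection, which were not measured. Exact two-sided permutation tests of log2 CPM gave p = 0.4 for Nfib, 0.5 for Bcl11b, Crym, Tbr1 and Foxp2, and 0.7 to 1.0 for the others, where 3 against 3 cannot go below 0.1.

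Layer 5 and layer 6 were compared by description, without a test. Within a library, the mean centred log2 CPM of layer 5 minus that of layer 6 was 0.06 ± 0.24 (SD, n = 3) in Ctrl. It was -0.06 ± 0.20 (SD, n = 3) in cKO, with overlapping groups. The median log2 fold change was -0.03 over the 4 layer 5 genes and 0.04 over the 4 layer 6 genes, beside 0.0027 over all genes tested. Sox5 and Nfib had a median of 0.14, and all 10 genes 0.03. Without Ctrl replicate 2 the medians were -0.08 for layer 5, -0.12 for layer 6, -0.06 for Sox5 and Nfib and -0.09 for all 10. After the correction for length and GC content they were -0.03, -0.02, 0.03 and -0.01. The medians of layer 5 and layer 6 did not keep their sign under every library left out: layer 5 ranged from -0.09 to 0.05 and layer 6 from -0.12 to 0.18. Without Ctrl replicate 2, Bcl11b, Foxp2 and Nfib had log2 fold changes of 0.02, 0.06 and 0.0190, and the other 7 lay below 0, from -0.17 for Tbr1 and -0.15 for Tle4 and Crym to -0.06 for Fezf2. Same-numbered libraries differed one way in 3 of 3 pairs for Bcl11b, Foxp2 and Nfib, with cKO higher, and for none of the 10 with cKO lower. Over all genes tested the shares were 15.8% with cKO higher and 14.6% with cKO lower, and the fit with the replicate block called none of the 3.

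Ratios between genes of a library compare the layers without scaling between libraries. On the authors' TPM scale, which is per transcript length, the ratio of Bcl11b to Tbr1 was 0.338, 0.326 and 0.296 in Ctrl and 0.395, 0.324 and 0.368 in cKO. The mean ratio was 0.320 ± 0.0215 (SD, n = 3) in Ctrl and 0.363 ± 0.0359 (SD, n = 3) in cKO, with overlapping groups. Ratios to Tbr1 were not corrected for length and GC content. In Ctrl replicate 2 that trend was -0.33 log2 units for Bcl11b, 0.26 for Fezf2 and 0.03 for Tbr1. Fezf2 to Tbr1 was 0.384, 0.359 and 0.314 in Ctrl and 0.278, 0.423 and 0.374 in cKO, on both sides of Ctrl. The ratio within layer 5, Fezf2 to Bcl11b, was 1.14, 1.10 and 1.06 in Ctrl. In cKO the same ratio was 0.704, 1.304 and 1.02, a mean of 1.01 ± 0.300 (SD, n = 3). The SD of this ratio was 0.0372 in Ctrl, and within cKO Fezf2 itself was lowest in replicate 1 and highest in replicate 2. This contrast in spread did not hold after the length and GC correction, which widened Ctrl and did not narrow cKO. The log2 CPM difference between the 2 genes then spanned 0.74 in Ctrl and 0.82 in cKO, against 0.0959 and 0.79 before it. Ctrl replicate 2 moved most, from 0.11 to -0.49 around the mean of the 6 libraries. Whether the trend holds for these 2 genes was not tested.

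**Figure D3:**
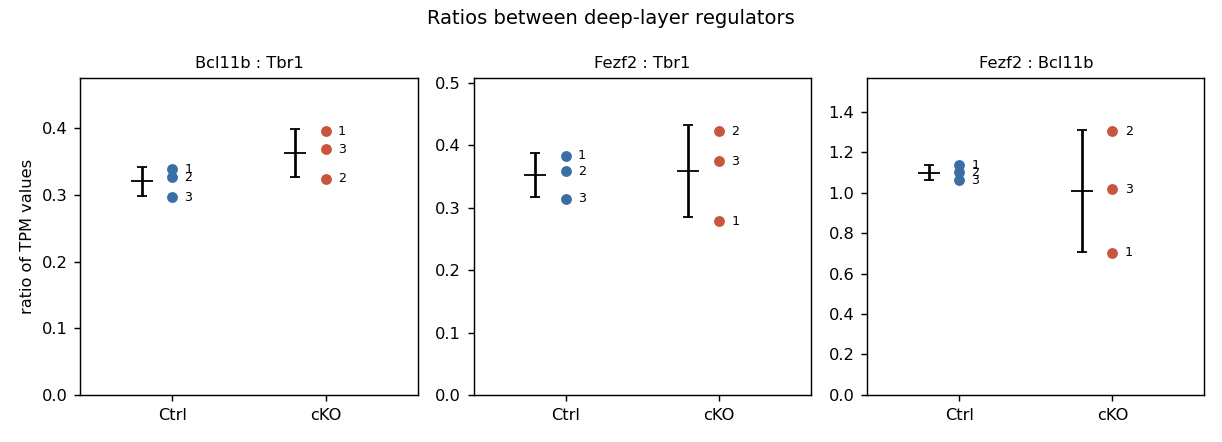
Ratios of TPM values between deep-layer regulators in each library, with Bcl11b to Tbr1 on the left, Fezf2 to Tbr1 in the middle and Fezf2 to Bcl11b on the right. Points are libraries with their replicate numbers, blue for Ctrl and red for cKO. Black bars are the mean ± SD of 3 libraries, and each axis starts at 0. The groups overlap in the left and middle panels. On the right, cKO runs from 0.704 to 1.304 around the Ctrl range of 1.06 to 1.14. After the length and GC correction of log2 CPM, not shown here, the difference between these 2 genes spanned 0.74 in Ctrl and 0.82 in cKO.

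The order of the 10 genes by level was nearly the same in both groups. By mean TPM, Nfib was highest, at 257 ± 72.2 TPM (SD, n = 3) in Ctrl and 311 ± 34.9 TPM in cKO, above 96.6% and 97.2% of all genes in the table. Tbr1 came next, at 188 ± 36.5 TPM in Ctrl and 190 ± 16.3 TPM in cKO. The ranges of Nfib and Tbr1 overlapped in Ctrl and not in cKO, and Tbr1 did not overlap with the next gene in either group. Sox5, at 79.9 ± 37.9 TPM, and Ldb2, at 75.5 ± 12.5 TPM, followed in Ctrl, and were at 94.3 ± 16.7 and 81.4 ± 5.58 TPM in cKO, with overlapping ranges in both groups. Below them Fezf2, Tle4 and Bcl11b had mean TPM of 65.4, 64.5 and 59.6 in Ctrl and of 68.7, 68.5 and 68.8 in cKO, and these neighbours did not differ beyond their ranges in either group. Crym was set apart from its neighbours in both groups, at 38.1 ± 2.29 TPM in Ctrl and 34.9 ± 11.6 TPM in cKO. Foxp2 and Zfpm2 were lowest, at 13.5 and 12.2 TPM in Ctrl and 16.5 and 14.2 TPM in cKO, near the middle of all genes in the table, and their ranges overlapped. A ratio between levels of bulk tissue counts every cell that makes the gene, and Nfib is also made by glia and progenitors.

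For each of the 10 genes, the highest and the lowest library of either group were further apart on the log2 scale than the group estimates. Within Ctrl, replicate 2 was the lowest library for 9 of 10, all but Crym, and replicate 3 the highest for 8 of 10, all but Ldb2 and Crym. Within cKO, replicate 1 was the lowest for 8 of 10, all but Bcl11b and Foxp2, and replicate 3 the highest for 8 of 10, all but Fezf2 and Crym. The summed level of the 10 genes was 854, 660 and 1046 TPM in Ctrl and 830, 958 and 1056 TPM in cKO. Of the log2 CPM values centred on the mean of a gene, Sox5 in Ctrl replicate 2 was at -0.76 and in Ctrl replicate 3 at 0.46, while Crym in cKO replicate 1 was at -0.80 and Fezf2 there at -0.44. The median distance between the highest and the lowest library of a group was 0.49 log2 units in Ctrl and 0.46 in cKO for the 10 genes. Over the 9880 genes with a mean of at least 10 CPM it was 0.39 in Ctrl and 0.17 in cKO.

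**Figure D4:**
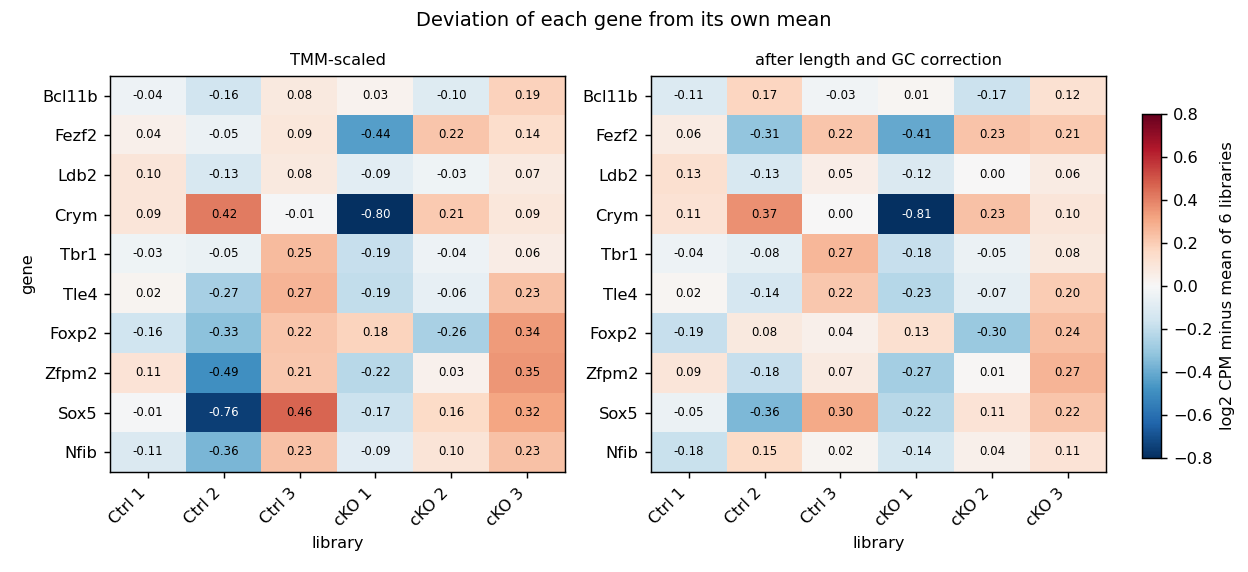
Deviation of each deep-layer gene from its own mean over 6 libraries, in log2 CPM. Rows are genes and columns libraries, red is above and blue below the mean, the left panel uses TMM-scaled values and the right panel values after removal of a trend on transcript length and GC content. On the left, 9 of 10 cells of Ctrl replicate 2 are below 0, and on the right 4 of its 10 cells are above 0.

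Part of this spread moved with transcript length and GC content. A smooth trend of each library on both properties put Ctrl replicate 2 at -0.52 log2 units for Nfib, whose longest transcript has 9116 bases, at -0.40 for Sox5 (7243 bases) and Foxp2 (6760 bases), at -0.33 for Bcl11b (8111 bases) and at -0.31 for Zfpm2 (5791 bases). For Fezf2, with 2429 bases and a GC content of 55.9%, the trend was 0.26. In the other libraries the trend of the 10 genes lay between -0.13 and 0.21. Both ends were in Ctrl replicate 3, for Fezf2 and Nfib. Not every gene had its largest trend in Ctrl replicate 2, where Ldb2 was at -0.0024. After its removal the median distance within Ctrl was 0.34 log2 units, and the distance was narrower for 6 of the 10 genes. Within Ctrl it was wider for Bcl11b, Fezf2, Ldb2 and Tbr1. Within cKO the median was 0.44, and the distance was narrower for 5 of the 10. Sox5 in Ctrl replicate 2 was then at -0.36, and Crym and Fezf2 in cKO replicate 1 stayed at -0.81 and -0.41. With the trend removed, 0 of 10 genes had an adjusted p under 0.05, beside 1.11% of all genes tested.

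In cKO replicate 1, the summed levels of striatal and interneuron genes were the highest of the 6 libraries. The summed level of 14 striatal genes was 154 TPM there, against 79.2 and 107 TPM in the other cKO libraries and 108 to 115 TPM in Ctrl. The sum of 10 interneuron genes was 1491 TPM in cKO replicate 1, against 1012 and 1134 TPM in the other cKO libraries and 924 to 1006 TPM in Ctrl. Npy alone made up 885 TPM of that sum, and was at 603 and 619 TPM in the other cKO libraries and 475 to 508 TPM in Ctrl. In TPM it was thus higher in every cKO library, whereas in CPM its groups overlapped. Without Npy the other 9 interneuron genes summed to 606 TPM in cKO replicate 1. They summed to 409 and 515 TPM in the other cKO libraries and to 449 to 506 TPM in Ctrl. Of the single genes, 9 of 14 striatal and 8 of 10 interneuron genes were highest in cKO replicate 1, while 4 and 2, Tac1 and Dlx6 among them, were highest in Ctrl replicate 2. Bcl11b and Foxp2, which striatal neurons make as well, were the only members above their own mean in this library, at 0.03 and 0.18 log2 units. Both were higher in cKO replicate 3, at 0.19 and 0.34, and in Ctrl replicate 3, at 0.08 and 0.22. The striatal sums of those libraries were lower, at 107 and 115 TPM. None of the 14 striatal or 10 interneuron genes was at 0 in every library, and 1 striatal gene, Gpr6, was below 1 TPM in all. Their part in the levels of the deep-layer genes was not tested.

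The genes whose profile over the 6 libraries was most like the mean profile of the layer 5 genes were Dusp4, Dync1i1 and Copg2, with root mean square differences of 0.035, 0.042 and 0.059 log2 units among 9870 genes. Being chosen for nearness to that profile, they share its low value in cKO replicate 1, at -0.32, -0.25 and -0.22 log2 units from their own means. Of the layer 5 genes, Crym and Fezf2 were at -0.80 and -0.44 in that library. Ldb2 and Bcl11b were at -0.09 and 0.03 there. Dusp4 encodes a phosphatase of MAP kinases, Dync1i1 a dynein intermediate chain and Copg2 a subunit of the coat of transport vesicles. The layer 5 genes themselves lay 0.083 to 0.261 from their mean profile, so that 6685 of the 9870 genes were as near to it as the farthest of the 4. For layer 6 the nearest genes were Fam199x, Oxr1 and Haus6, at 0.026, 0.052 and 0.054 log2 units, with values of -0.28, -0.28 and -0.33 in Ctrl replicate 2. The layer 6 genes lay 0.043 to 0.155 from their mean profile, and 1697 of 9870 genes were within the larger distance. Likeness over 6 libraries is a description, and all of these genes share the same libraries.

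Other genes of the same layers were read from the same fit. Of 16 further layer 5 genes, 15 were tested (not Rbp4) and 0 passed the adjusted threshold, with a median log2 fold change of 0.08. Diaph3, a formin that nucleates actin filaments and also acts in dividing cells, had the highest estimate and was the 1 gene of this list with an unadjusted p under 0.05. It was at 7.84, 8.02 and 10.1 CPM in Ctrl and at 12.3, 15.04 and 14.2 CPM in cKO, without overlap (log2 fold change 0.68, standard error 0.162, adjusted p = 0.363). Chst8, a sulfotransferase for carbohydrates, had the lowest, at -0.35 (standard error 0.251, adjusted p = 0.854). Both were under 20 CPM in every library.

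Of 12 further layer 6 genes, 11 were tested (not Col24a1) and 0 passed, with a median of 0.15. At an unadjusted p under 0.05 there were 3, Syt6 and Lmo3 above 0 and Sla below. Sla, which encodes a Src-like adaptor, was at 215, 191 and 254 CPM in Ctrl and at 132, 176 and 164 CPM in cKO. The groups of Sla did not overlap (log2 fold change -0.48, standard error 0.149, adjusted p = 0.527), and it passed after the length and GC correction (adjusted p = 0.0398, and 0.0146 with the replicate block as well). Rxfp1, a relaxin receptor, had the highest estimate, 0.93 (standard error 0.461, adjusted p = 0.795), from levels of 0.586 to 3.03 CPM. Without Ctrl replicate 2, Ppp1r1b passed in place of Sla.

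The 11 factors that act with or against the deep-layer genes, among them Nr2f1 and Sox11, had 0 calls and a median of -0.09, with 8 below 0. Bhlhe22, a basic helix-loop-helix factor needed by corticospinal neurons, had an unadjusted p under 0.05. It was at 312, 279 and 267 CPM in Ctrl and at 202, 241 and 227 CPM in cKO, without overlap (log2 fold change -0.36, standard error 0.117, adjusted p = 0.569). Pou3f1, a POU factor of layer 5 neurons, had the lowest estimate, -0.41, and Tshz3, a zinc finger factor of projection neurons, the highest, 0.35 (adjusted p = 0.764 and 0.815). Of 14 paralogs of the deep-layer genes, 12 were tested (not Fezf1 and Tbx21) and 0 passed, with 0 at an unadjusted p under 0.05. They ran from -0.20 for Zfpm1, the GATA cofactor most like Zfpm2, to 0.35 for Sox6, the SoxD partner of Sox5. Sox6 was at 68.9, 42.6 and 72.4 CPM in Ctrl and at 64.8, 84.7 and 84.1 CPM in cKO, with Ctrl replicate 2 lowest as for Sox5.

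The neighbouring populations were compared in the same fit. Of 11 upper-layer genes, which mark the callosal neurons born after the deep layers, 0 passed, and the median was -0.04. Mdga1, a cell adhesion protein anchored to the membrane, had the lowest estimate. It was at 212, 152 and 189 CPM in Ctrl and at 131, 136 and 117 CPM in cKO, without overlap (log2 fold change -0.53, standard error 0.140, adjusted p = 0.465), and it passed after the length and GC correction and without Ctrl replicate 2 (lowest adjusted p = 0.0097 over the alternatives). Unc5d, a netrin receptor of young upper-layer neurons, had the highest, 0.42 (standard error 0.199, adjusted p = 0.789).

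Of 8 subplate genes, which mark the earliest neurons below layer 6, 7 were tested (not Cplx3), 0 passed and all 7 had a log2 fold change above 0, with a median of 0.19. Their summed level was 63.7, 55.7 and 63.0 TPM in Ctrl and 97.2, 79.1 and 83.6 TPM in cKO, without overlap. With limma on log2(TPM + 1), the median log2 fold change of all genes was itself 0.14. In CPM, every cKO library was above every Ctrl library for 3 of the 7 tested. Over all genes tested, the groups did not overlap in either direction for 14.3%. Ccn2, Nxph4 and Moxd1 had an unadjusted p under 0.05, where 3.14% of all genes tested did in this direction. Moxd1, a monooxygenase-like protein, had the highest estimate, at 1.003, 0.761 and 1.302 CPM in Ctrl and 1.86, 1.83 and 1.72 CPM in cKO (log2 fold change 0.83, standard error 0.272, adjusted p = 0.569). Nr4a2, a nuclear receptor of the subplate and of layer 6b, had the lowest, 0.05 (adjusted p = 0.983). Nxph4 passed after the length and GC correction and without Ctrl replicate 2. Sox5, which subplate neurons also need, is described above and did not part the groups.

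Markers of the cells that a cortical dissection can hold were read for the same libraries, and none of these lists had a gene past the adjusted threshold. Excitatory neuron genes summed to 1287 to 1817 TPM in Ctrl and to 1429 to 1624 TPM in cKO. Within that list Slc17a7, the vesicular glutamate transporter of mature cortical neurons, came closest to the threshold, at 33.0, 30.7 and 34.1 CPM in Ctrl and 55.5, 55.1 and 51.6 CPM in cKO (log2 fold change 0.73, standard error 0.103, adjusted p = 0.0722). It passed with DESeq2, after the length and GC correction and without Ctrl replicate 2, and it was the 1 gene of all lists that DESeq2 called. Pan-neuronal genes summed to 4843 to 5004 TPM in Ctrl and 4706 to 4911 TPM in cKO. Radial glia genes, the progenitors of the cortex, summed to 1486 to 2155 TPM in Ctrl and 1676 to 2018 TPM in cKO. Thalamic genes were low, at 24.9 to 39.9 TPM in Ctrl and 23.9 to 31.9 TPM in cKO, as were genes of oligodendrocytes and astrocytes, at 57.0 to 89.0 and 59.4 to 93.4 TPM.

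At an unadjusted p under 0.05, the pan-neuronal list held Syt1, a calcium sensor of synaptic vesicles, at a log2 fold change of 0.52, and Nefl, the light neurofilament chain, at -0.48 (adjusted p = 0.510 and 0.465). The progenitor list held Pax6, a factor of radial glia, at 0.31 (adjusted p = 0.608). The thalamic list held Calb2, the calcium-binding protein calretinin, at -0.88 (adjusted p = 0.732), and the glial list Aqp4, the water channel of astrocytes, at 0.74 (adjusted p = 0.718). The striatal and interneuron lists held none, and ran from -1.40 for Tac1, a tachykinin precursor, to 0.33 for Drd1, a dopamine receptor, and from -0.78 for Dlx6, a homeobox factor, to 0.32 for the neuropeptide gene Npy. Their medians were -0.20 and -0.05, and 0.03 and 0.19 without Ctrl replicate 2. The lowest estimates of the radial glia and glial lists were -0.33 for Hopx and -0.38 for Gfap, and the highest of the thalamic list was 0.31 for Tcf7l2.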

How the data were processed

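Cortices of E18.5 Ctrl and cKO embryos (3 libraries each, groups and numbers from the labels) were dissected, and mRNA libraries from Trizol-extracted RNA were sequenced on the DNBSEQ platform. The submitters' processing notes name HISAT2 2.2.1, Bowtie2 2.4.5, RSEM 1.3.1 and the builds GRCm38 and mm10, with no role or order. Annotation and use of strand are not given in the sources used here. The authors deposited, for each gene and library, an estimated count (89.4% whole), a TPM value and an FPKM value, besides 6 columns of group means, which were not used. The deposited estimated counts are not scaled between libraries, the authors' TPM values sum to the same total in each library, and the deposited FPKM values were read but no result uses them.

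Counts were rounded, filtered (filterByExpr), scaled by TMM and compared between groups with edgeR 4.0.16 (quasi-likelihood, Benjamini-Hochberg adjustment over all genes tested) in R 4.3.3. Permutation tests used log2 CPM with a prior count of 2. Alternatives were DESeq2 1.42.0, RLE size factors, the replicate number as a block, other filters, each library left out, limma 3.58.1 on log2(TPM + 1), and removal of a smooth trend (mgcv 1.9.3) on length and GC content of the longest transcript in GENCODE M21, which 96.7% of genes had. Methods were tested on simulated data. Coordinates are from GENCODE M21 (GRCm38), since the table has none.

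The members and lists were chosen with earlier results of these data known. Named genes are the 10 members, Ybx1, the highest and lowest log2 fold change of each other list, and the 3 genes most like each layer profile. Genes named for an unadjusted p under 0.05, for a call in an alternative or as tissue markers were chosen after their values were seen. The series' description speaks of 3 sequencing batches of different biological replicates. Over 9880 genes, same-numbered Ctrl and cKO libraries deviated from their group means with correlations of 0.126, 0.184 and 0.372. Libraries with unlike numbers gave -0.265 to 0.0353. Deviations from a group mean cancel over the libraries of that group, so these values are not independent of the same-numbered ones. The labels do not say what the numbers stand for. Pairs by number are therefore a description, and whether they share a batch or litter was not tested. The main estimates, their intervals and the permutation tests use no pairing, and the replicate block is an alternative. Replicates differed beyond counting noise (chi-square per degree of freedom 3.52 to 65.4). Intervals cover the spread between these libraries, which includes counting error. The part due to counting was not measured for single genes. It is larger where counts are few, as for Moxd1 (13 to 30 estimated counts), Rxfp1 (10 to 49) and Tac1 (4 to 64). One gene was left out of the lists and is not reported here.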

Additional observations from a re-analysis of the deposited data

How the results depend on the processing

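Across 14 other fits of the same libraries, 0 of 10 deep-layer genes had an adjusted p under 0.05, and the lowest was 0.360, for Nfib. The replicate block left 0 genes past the threshold, with medians of -0.04 for layer 5 and 0.05 for layer 6 and -5.46 for Ybx1, and the pairing changed the call of no deep-layer gene. Over all genes it called 11 in place of 10, and 149 in place of 151 with the length and GC correction. With 1 library left out, Ybx1 ranged from -5.56 to -5.33, the layer 5 median from -0.09 to 0.05, the layer 6 median from -0.12 to 0.18, and the count stayed at 0. Signs of single genes, none of them called, changed in 14 cases over 6 of the 10 genes, besides 4 with limma on TPM. After the length and GC correction, alone and with the replicate block, Bcl11b was at -0.0224 and -0.0222 and Fezf2 at 0.0335 and 0.0227. Limma on TPM moved the median of all genes to 0.14, and gave 0.0430 for Fezf2, 0.12 for Ldb2, 0.0341 for Tbr1 and 0.10 for Tle4, all below that median as they were below that of the fit reported. With 1 library left out, Fezf2 ranged from -0.15 to 0.15, Ldb2 from -0.10 to 0.0103, Tle4 from -0.15 to 0.12, Zfpm2 from -0.0880 to 0.24, Sox5 from -0.13 to 0.45 and Nfib from 0.0190 to 0.32. The cause of these sign changes was not tested. Over all genes the number called depended on the setting, from 8 in 4 of the fits with 1 library left out and 10 in the fit reported to 93 with DESeq2, 122 without Ctrl replicate 2 and 151 with the length and GC correction. Crym had the fewest counts, and Sox5 the widest interval.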
